A study of Sus scrofa with 14 samples.

Results

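The TGF-beta superfamily genes TGFB2, TGFB3, ACVR1 and FSTL3 were followed on a porcine Affymetrix array in uterus of pregnant F2 sows from an Iberian x Meishan cross. They are the members of a TGF-beta and activin list that had passed the test as lower in high prolificacy in an earlier look at the same arrays, so that difference chose them and is described here without a test. All probe sets whose single gene symbol in the platform annotation was 1 of the 4 were taken, which gave 10 of 23999 probe sets tested, namely 4 for TGFB2 and 2 each for TGFB3, ACVR1 and FSTL3. Values are log2 levels, and no filter on low values was used.

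Uterus samples had been taken at slaughter from 5 sows of high prolificacy and 9 sows of low prolificacy, with 1 array per sow. All 14 were Iberian x Meishan F2 animals, an intercross of a European and a Chinese pig breed, on days 30 to 32 of the fifth gestation, and no treatment is given in the labels. The labels do not say how prolificacy was scored, what layers of the uterine wall a sample held, how far it lay from a conceptus, or whether sows were related.

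TGF-beta ligands are secreted in a latent form and, once released, bring together type II and type I receptor kinases, which phosphorylate SMAD proteins that enter the nucleus. TGFB2 and TGFB3 are a pair of such ligands. ACVR1, also called ALK2, is a type I receptor that serves mainly bone morphogenetic proteins and signals through SMAD1 and SMAD5. FSTL3 is a secreted relative of follistatin that binds activins and myostatin and keeps them from their receptors. In the uterus the superfamily is known for its part in decidualisation, tissue remodelling and placentation.

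Smooth muscle marker transcript differed between the groups, and the values below are to be read with that difference in view. Of 15 smooth muscle marker genes on the array, 15 fell in high prolificacy, where 4.35% of all probe sets were called lower and 3.5% higher. The mean of this list, centred on each gene's average over the arrays, lay between -3.25 and -0.0069 in high and between 0.67 and 1.88 in low prolificacy. High 1 was at -0.0069, and the other high arrays were at or below -2.47. Of 15 epithelium genes 8 rose (list mean 0.71 to 1.64 in high, -2.56 to 0.26 in low), and of 11 stromal fibroblast genes 4 fell and 1 rose (-0.97 to 0.24 in high, -0.43 to 0.80 in low). The trophoblast list (0 of 7 called) had means of -1.07 to 3.26 in high and -0.94 to 0.85 in low, with high 4 and high 1 at the top of their group. Its genes were PAG6, TFAP2C, GATA2, GATA3, PEG10, TTR and AFP. Since TTR and AFP are genes of fetal plasma proteins, the list mean is not one of trophoblast alone. AFP reached 11.10 in high and 4.29 in low prolificacy, and PAG6 reached 11.43 and 10.89. In bulk tissue, fewer cells of a type and less RNA per cell cannot be told apart. The array scale has no true zero, so the absence of a marker could not be read from it.

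The ligand TGFB2 had levels of 6.34, 5.01, 5.90, 5.37 and 5.76 in high 1 to high 5, against 6.82, 6.49, 6.45, 6.29, 6.23, 7.33, 7.14, 6.89 and 7.58 in low 1 to low 9, by its brightest probe set. High 1 reached into the low range, above low 4 and low 5, and the other 4 high arrays lay below every low array. The averages were 5.68 ± 0.51 in high (SD, n = 5), against 6.80 ± 0.48 in low prolificacy (SD, n = 9). The difference was -1.13 ± 0.26 (limma SE), which is 2.18-fold lower in high prolificacy.

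The ligand TGFB3 had levels of 5.58, 4.62, 4.87, 5.62 and 5.47 in high 1 to high 5, against 7.45, 7.06, 6.03, 8.22, 6.61, 6.48, 8.45, 5.83 and 5.94 in low 1 to low 9. The groups did not overlap for this probe set, a pattern with high below low that held for 1.74% of all probe sets tested. The low arrays were spread widely, with low 4 and low 7 at the top and low 3, low 8 and low 9 close above the high arrays. Their SD was 0.97 (n = 9), against 0.45 (n = 5) in high prolificacy. The means were 5.23 in high and 6.90 in low prolificacy, and the difference was -1.66 ± 0.43 (limma SE), or 3.17-fold lower.

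The receptor ACVR1 had levels of 8.15, 7.98, 7.40, 7.34 and 8.25 in high 1 to high 5, against 8.70, 8.72, 8.60, 8.41, 8.57, 8.07, 8.49, 8.24 and 8.71 in low 1 to low 9. High 1 and high 5 fell within the low range, beside low 6 and low 8, and high 3 and high 4 were well below it. The averages were 7.82 ± 0.43 in high (SD, n = 5), against 8.50 ± 0.23 in low prolificacy (SD, n = 9). The difference of -0.68 ± 0.17 (limma SE), or 1.60-fold lower, was the smallest among the brightest probe sets of the 4 genes.

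The activin-binding protein FSTL3 had levels of 7.59, 7.46, 6.85, 7.38 and 7.76 in high 1 to high 5, against 8.93, 8.32, 8.45, 8.80, 8.05, 8.34, 9.68, 7.70 and 8.79 in low 1 to low 9. The groups met at a single array, low 8, which lay just under high 5, and low 7 stood highest. The averages were 7.40 ± 0.34 in high (SD, n = 5), against 8.56 ± 0.57 in low prolificacy (SD, n = 9), with a difference of -1.16 ± 0.27 (limma SE), or 2.23-fold lower.

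**Figure D1:**
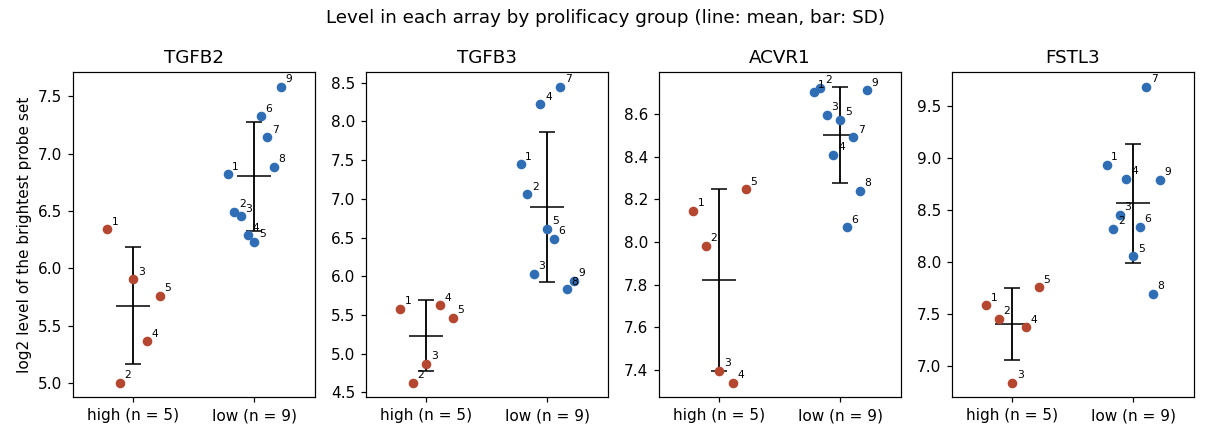
Log2 level of the brightest probe set of TGFB2, TGFB3, ACVR1 and FSTL3 in each array, with high prolificacy (n = 5) left and low prolificacy (n = 9) right. Numbers give the replicate, lines the group mean and bars the SD. TGFB3 is without overlap, and single arrays or pairs of arrays cross between the groups for the other genes.

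Leaving out any 1 array kept these differences between -1.29 and -0.96 for TGFB2, -1.80 and -1.47 for TGFB3, -0.79 and -0.56 for ACVR1, and -1.27 and -1.02 for FSTL3. Without high 1 and high 4, the high arrays with the highest trophoblast list means, they were -1.25, -1.91, -0.63 and -1.21 in the same order of genes. Without low 7 and low 9, the arrays with the least epithelial transcript, they were -0.97, -1.58, -0.65 and -0.97. Both pairs were picked after the list means were seen.

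All 10 probe sets had a lower mean in high prolificacy, and 5 of the 10 passed limma's adjusted p of 0.05 as lower, among them the 4 brightest that had chosen the genes. Over all probe sets 4.35% were called lower, and since the rule used this contrast nothing is read from the count. Of the 4 brightest, TGFB2 and TGFB3 were not called without high 2, TGFB3, ACVR1 and FSTL3 without high 3, ACVR1 without high 4, TGFB3 without high 5, and ACVR1 without low 7 and low 9 together. Within TGFB2 the second probe set differed by -1.16 ± 0.29 (limma SE), much like the brightest, and the dimmest by -0.80 ± 0.24. The third differed by -0.17 ± 0.29, and 4 of the 5 high arrays lay within its low range. It averaged 4.37 in high and 4.53 in low prolificacy. This was below 5.73, the smallest of the array medians, as was the dimmest probe set, and without detection calls it is not known whether they rose above background. The high means of the brightest TGFB2 set (5.68), the second TGFB2 set (5.20) and the brightest TGFB3 set (5.23) lay below that mark too, which limits the folds of both ligands.

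The second TGFB3 probe set averaged 3.99 in high and 4.74 in low prolificacy, both under 5.73, and differed by -0.75 ± 0.29 (limma SE). The second ACVR1 probe set differed by -0.40 ± 0.12 and the second FSTL3 probe set by -1.06 ± 0.37. In that FSTL3 probe set, low 8 at 6.29 fell among the high arrays, and the other 8 low arrays lay above all of them.

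**Figure D2:**
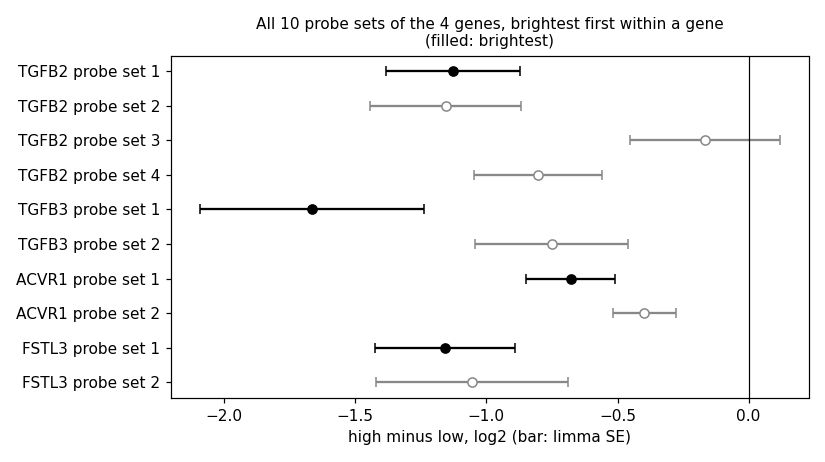
High minus low prolificacy on the log2 scale for all 10 probe sets of the 4 genes, with limma's standard error as bars and the brightest probe set of each gene filled. All 10 points lie below 0, from -0.17 for the third TGFB2 probe set to -1.66 for the brightest of TGFB3.

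Agreement between probe sets of a gene was read in the 9 low arrays, where the contrast that chose the genes plays no part. The FSTL3 probe sets followed each other at Pearson r = 0.96 (exact permutation p = 0.00020) and Spearman rho = 0.93 (exact permutation p = 0.00075). The TGFB3 probe sets did so at r = 0.90 (exact permutation p = 0.0010) and rho = 0.87 (exact permutation p = 0.0045). Without the 2 arrays farthest from the median, r was 0.82 for FSTL3 and 0.78 for TGFB3. The 6 pairs of TGFB2 probe sets ranged widely. The brightest followed the second at r = 0.82 (exact permutation p = 0.0026), the third at r = 0.69 (exact permutation p = 0.045) and the dimmest at r = 0.87 (exact permutation p = 0.0012), with rho of 0.90, 0.53 and 0.90 (exact permutation p = 0.0020, 0.15 and 0.0020). Among the other 3, r was 0.44 for the second and the third, 0.57 for the third and the dimmest and 0.85 for the second and the dimmest (exact permutation p = 0.24, 0.11 and 0.0065), with rho of 0.35, 0.63 and 0.77 (exact permutation p = 0.36, 0.076 and 0.021). Without the 2 farthest arrays r was 0.65, 0.62 and 0.83 for the pairs with the brightest, and 0.10, 0.63 and 0.38 for these others. The ACVR1 probe sets did not follow each other (r = 0.21, exact permutation p = 0.58, rho = 0.15, exact permutation p = 0.71, and r = -0.31 without low 6 and low 8), so which of them stands for the receptor within the low group is not known. Over all probe sets, limma's adjusted p was at least 0.10 for each of the 9 pairs.

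The relation of each gene to smooth muscle transcript within the groups was fitted in limma with the group and the smooth muscle list mean in the model. For a rise of 1 in the list mean, the brightest probe set changed by 0.35 ± 0.15 (SE) for TGFB2 (adjusted p = 0.56), 0.32 ± 0.28 for TGFB3 (adjusted p = 0.85), 0.12 ± 0.11 for ACVR1 (adjusted p = 0.86) and 0.30 ± 0.16 for FSTL3 (adjusted p = 0.69). None of the 4 passed, where 0.288% of all probe sets did, 10 of the 15 smooth muscle genes themselves among them. The TGFB2 slope had an unadjusted limma p of 0.033 and the others had unadjusted p of 0.082 or more, and 7.96% of all probe sets had one under 0.05.

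High 1 weighed heavily in this fit. It alone of the high arrays had a smooth muscle mean near that of the low arrays. Its TGFB2 level of 6.34 was the highest of the high group, close to low 4 and low 5. Its TGFB3 level of 5.58 and its FSTL3 level of 7.59 stood among those of the other high arrays. Without high 1 the slopes were 0.49 for TGFB2, 0.90 for TGFB3, 0.016 for ACVR1 and 1.08 for FSTL3, and limma's adjusted p was at least 0.16 for each.

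**Figure D3:**
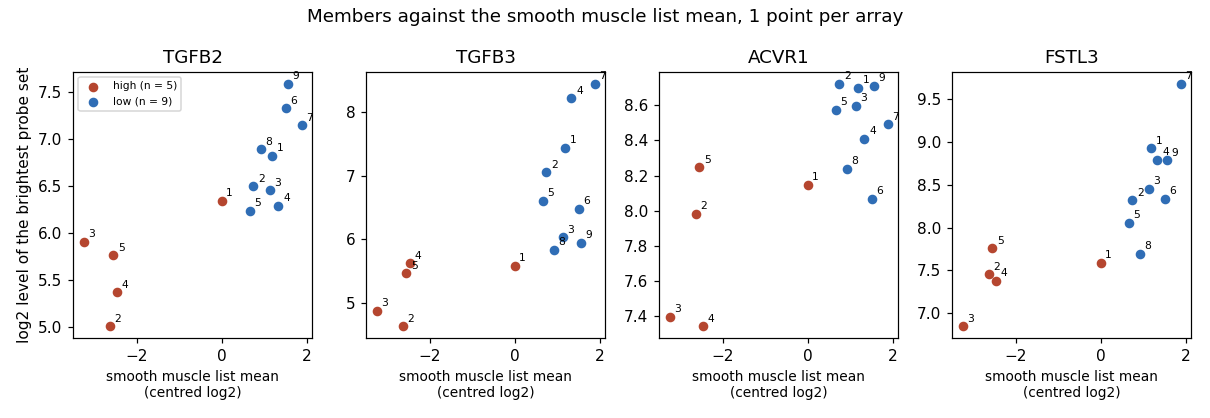
Log2 level of each gene's brightest probe set against the smooth muscle list mean (centred log2), 1 numbered point per array, high prolificacy (n = 5) in red and low prolificacy (n = 9) in blue. High 1 sits near 0 on the horizontal axis, apart from the other high arrays, and FSTL3 and TGFB2 climb with the list mean among the low arrays.

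Among the 9 low arrays, FSTL3 followed the smooth muscle list mean at Pearson r = 0.78 (exact permutation p = 0.012) and Spearman rho = 0.75 (exact permutation p = 0.025). Without low 5 and low 7 its r was 0.53, and over all probe sets limma's adjusted p was 0.17. TGFB2 followed it at r = 0.69 (exact permutation p = 0.043) and rho = 0.70 (exact permutation p = 0.043), with r = 0.60 without those arrays and an adjusted limma p of 0.31. Its other probe sets had r = 0.35 for the second, 0.80 for the third and 0.40 for the dimmest (exact permutation p = 0.37, 0.012 and 0.29), rho of 0.52, 0.60 and 0.50 (exact permutation p = 0.16, 0.097 and 0.18) and r of 0.28, 0.68 and 0.43 without low 5 and low 7, so the TGFB2 relation depended on the probe set. TGFB3 had r = 0.39 (exact permutation p = 0.30) and rho = 0.25 (exact permutation p = 0.52), and its r was -0.0031 without low 5 and low 7. It was 0.39 without low 5 alone and 0.023 without low 7 alone, so what relation there was rested on low 7. ACVR1 had r = -0.21 (exact permutation p = 0.58) and rho = -0.20 (exact permutation p = 0.61), with r = -0.24 without low 5 and low 7.

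As a description of where these values stand, 2.26% of all probe sets had an r at or above that of FSTL3 in the low arrays, 5.26% one at or above that of TGFB2, 22.6% for TGFB3 and 71.8% for ACVR1. At this number of arrays limma called 0 probe sets in the low group, that is 0% of those tested, with 12.3% at an unadjusted p under 0.05. The high group, with 5 arrays, was too small for a correlation.

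The slope on the smooth muscle mean was 0.13 in high and 1.12 in low prolificacy for FSTL3, a difference of -0.99 ± 0.35 (SE), with an unadjusted limma p of 0.014 and an adjusted p of 0.34. Its second probe set gave a difference of -1.49 ± 0.50 (limma adjusted p = 0.33). For TGFB2 the slopes were 0.25 and 0.82, for TGFB3 0.19 and 0.95, and for ACVR1 0.17 and -0.12, in high and low prolificacy, with adjusted limma p of at least 0.64. Over all probe sets 0% passed this test of the difference between groups, and 10.4% had an unadjusted p under 0.05. Without high 1 the FSTL3 difference was -0.20.

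At an equal smooth muscle mean, the high minus low difference in the same fit was 0.046 ± 0.54 (limma SE) for TGFB2, -0.58 ± 1.03 for TGFB3, -0.27 ± 0.41 for ACVR1 and -0.14 ± 0.60 for FSTL3. These are descriptions, since the contrast chose the genes. Their standard errors are more than 2 times those without the covariate, because the smooth muscle mean accounted for 83.0% of the variance of the group label. Without high 1 the values were 0.62, 1.80, -0.70 and 3.04. For these genes, group and smooth muscle transcript cannot be told apart in these 14 arrays.

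TGFB3 went with the stromal fibroblast list, which holds collagens, DCN, LUM, FBLN1, THY1 and VIM and none of the 4. The stromal mean was an alternative to the smooth muscle mean, and this relation was followed up only after it had passed. The p-values given for it are therefore those of a picked result. With group in the model, the TGFB3 level rose by 1.37 ± 0.32 (SE) for each rise of 1 in the stromal list mean (limma adjusted p = 0.045), where 2.15% of all probe sets passed and 1.18% did so with a positive slope. In the low arrays r was 0.91 (exact permutation p = 0.00068) and rho 0.98 (exact permutation p = 5.0e-05), and r was 0.95 without low 8 and low 9. Low 7 and low 4 had the highest stromal means and the highest TGFB3 levels, and low 8 had the lowest of both. The slope was 0.60 in high and 2.31 in low prolificacy, a difference with an unadjusted limma p of 0.0033 and an adjusted p of 0.34.

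The TGFB3 slope on the stromal mean kept its size when single arrays were left out, between 1.15 and 1.65, but the call did not hold. Limma's adjusted p was over 0.05 in 12 of these 14 fits, all but those without high 1 or high 5, and reached 0.12 without low 8. In the low arrays alone limma's adjusted p was 0.058, and with the smooth muscle mean as a further covariate the slope was 1.49 (limma adjusted p = 0.064). The second TGFB3 probe set had a slope of 0.57 ± 0.30 (SE, limma adjusted p = 0.36), with -0.15 in high and 1.45 in low prolificacy. In the low arrays it followed the stromal mean at r = 0.85 (exact permutation p = 0.0040) and rho = 0.92 (exact permutation p = 0.0013). Its r there was 0.81 without low 8 and low 9, and limma's adjusted p was 0.12.

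**Figure D4:**
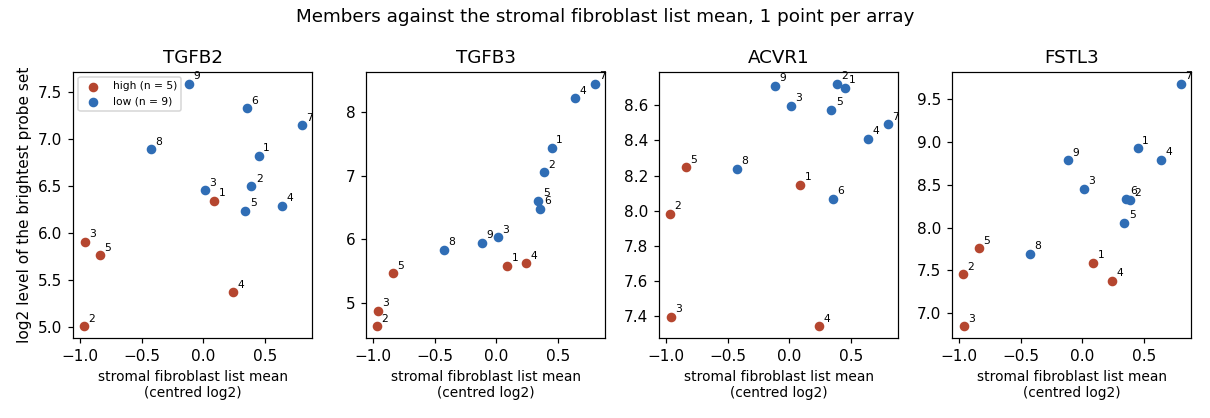
Log2 level of each gene's brightest probe set against the stromal fibroblast list mean (centred log2), 1 numbered point per array, high prolificacy (n = 5) in red and low prolificacy (n = 9) in blue. TGFB3 climbs with the list mean along the low arrays, from low 8 to low 7, and the brightest probe sets of TGFB2 and ACVR1 show no such order.

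The other genes had stromal slopes of 0.54 ± 0.27 (SE) for FSTL3, 0.0097 ± 0.29 for TGFB2 and -0.045 ± 0.19 for ACVR1, and limma's adjusted p was at least 0.33. The second FSTL3 probe set had 0.98 ± 0.33 (limma adjusted p = 0.14) and the second ACVR1 probe set 0.13 ± 0.13 (limma adjusted p = 0.68). In the low arrays alone, the second ACVR1 probe set did follow the stromal mean, at r = 0.87 (exact permutation p = 0.0019) and rho = 0.90 (exact permutation p = 0.0020), with r = 0.88 without low 8 and low 9 and an adjusted limma p of 0.26. The brightest ACVR1 probe set had r = 0.099 (exact permutation p = 0.80) and rho = -0.017 (exact permutation p = 0.98) there, so the ACVR1 probe sets disagreed. In the low arrays FSTL3 followed the stromal mean at r = 0.68 (exact permutation p = 0.042) and rho = 0.70 (exact permutation p = 0.043), with r = 0.73 without low 8 and low 9 and an adjusted limma p of 0.28. Its second probe set had r = 0.83 (exact permutation p = 0.0062) and rho = 0.80 (exact permutation p = 0.014) there. That r was 0.76 without low 8 and low 9, and the adjusted limma p was 0.13. With the smooth muscle mean the second probe set had r = 0.725 (exact permutation p = 0.024) and rho = 0.72 (exact permutation p = 0.037). The list with the higher r thus differed between the FSTL3 probe sets.

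By its brightest probe set, TGFB2 ran against the epithelium list among the low arrays, at r = -0.78 (exact permutation p = 0.012). Its rho was -0.80 (exact permutation p = 0.014), with r = -0.73 without low 7 and low 9 and an adjusted limma p of 0.15. The other TGFB2 probe sets, in falling order of brightness, had r = -0.66, -0.82 and -0.71 (exact permutation p = 0.0497, 0.0070 and 0.035). Their rho was -0.68, -0.53 and -0.70 (exact permutation p = 0.050, 0.15 and 0.043). With the blood endothelium list the brightest had r = -0.78 (exact permutation p = 0.016) and rho = -0.80 (exact permutation p = 0.014). That r was -0.75 without low 2 and low 5, and the adjusted limma p was 0.27. The others, in the same order, had r = -0.54, -0.46 and -0.58 (exact permutation p = 0.13, 0.21 and 0.10), so this relation depended on the probe set. With the leukocyte list the brightest had r = -0.70 (exact permutation p = 0.042, limma adjusted p = 0.21). The others had r = -0.63, -0.27 and -0.55 there (exact permutation p = 0.057, 0.47 and 0.13). Among 24 relations of the 4 genes to 6 marker lists, none passed limma's adjusted p of 0.05 in the low arrays. The share of all probe sets that passed there was 1.55% for the epithelium list, 0.0208% for blood endothelium, 0.183% for trophoblast, 0% for leukocyte and 0.0958% for the stromal list. The lists other than smooth muscle were examined in the low arrays after the data were seen.

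The 2 ligands did not follow each other in the low arrays (r = -0.21, exact permutation p = 0.58, rho = -0.28, exact permutation p = 0.46, and r = -0.069 without low 5 and low 9). TGFB3 and FSTL3 had r = 0.73 (exact permutation p = 0.022) and rho = 0.67 (exact permutation p = 0.059), and r = 0.43 without low 4 and low 7, so that relation rested in part on those arrays, and its adjusted limma p over all probe sets was 0.39. The other 4 of the 6 pairs had r between -0.21 and 0.30 (exact permutation p of at least 0.43), rho between -0.083 and 0.22 (exact permutation p of at least 0.58), and r between -0.56 and 0.36 without the 2 farthest arrays. The 4 genes were all lower in high prolificacy by their choice. Within low prolificacy, limma's adjusted p was at least 0.39 for each of the 6 pairs of brightest probe sets. With 9 arrays this does not show that the genes had different orders of arrays.

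The genes most like each member were found by Pearson r over the 14 arrays after each group's mean was subtracted, and these r are descriptions of a search over all named genes. For TGFB2 they were DMD, the gene of dystrophin (r = 0.92), RBM8A, a core protein of the exon junction complex (r = 0.87), TRIM44 (r = 0.83) and FHOD3, a formin that builds actin filaments in muscle (r = 0.82). For TGFB3 they were COL8A1, a collagen chain (r = 0.90), the glycyl-tRNA synthetase GARS (r = 0.90), the asparagine synthetase ASNS (r = 0.90) and PLEKHO1 (r = 0.87). In the low arrays alone, r with TGFB3 was 0.98 for ASNS and 0.97 for GARS.

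For FSTL3 the genes were the tetraspanin CD151 (r = 0.88), the phospholipid flippase ATP10A (r = 0.88), HSPB7, a small heat shock protein of muscle (r = 0.87), and the adhesion receptor ADGRE5 (r = 0.87). For ACVR1 the likeness was weaker. The genes were LOC100513397 (r = 0.81), ARL6IP5 (r = 0.81), the mitochondrial ribosomal protein MRPL50 (r = 0.80) and ACTR6 (r = 0.79), and in the low arrays alone these r lay between 0.57 and 0.70.

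The other genes of the superfamily's pathway, target genes among them, did not share one direction. Of 75 other genes listed by role, 37 were on the array with a single symbol. Limma called 3 of the 37 higher (8.11%) and 1 lower (2.7%) in high prolificacy, where 3.5% of all probe sets were called higher and 4.35% lower, and together 10.8% against 7.85%. Their median difference was 0.022, and that of all probe sets was 0.039. Each of the 37 was a gene's brightest probe set, whereas all probe sets include dim ones, so these shares are not of like sets. With the 12000 brightest probe sets tested alone, 716 were called higher and 983 lower. Nothing particular to the list is read from its counts.

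Among 12 other ligands and their processing enzymes 0 were called (median difference 0.014), and 1 had an unadjusted limma p under 0.05. TGFB1, the third TGF-beta ligand, had levels of 6.83 ± 0.58 in high (SD, n = 5), against 6.17 ± 0.47 in low prolificacy (SD, n = 9), a difference of 0.66 ± 0.27 (limma SE, adjusted p = 0.16), opposite in sign to TGFB2 and TGFB3. Its dimmer probe set differed by -0.073. BMP1, a protease that cleaves procollagens, differed by -0.35 (limma adjusted p = 0.38). INHBA, the activin A subunit that FSTL3 binds as activin, averaged 7.18 ± 0.15 in high (SD, n = 5), against 7.17 ± 0.24 in low prolificacy (SD, n = 9), and it was singled out with its value known.

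Among 9 other receptors and coreceptors, ACVR1B rose in high prolificacy. ACVR1B, or ALK4, is the type I receptor of activins, and its levels were 8.29 ± 0.52 in high (SD, n = 5), against 7.22 ± 0.63 in low prolificacy (SD, n = 9), a difference of 1.08 ± 0.31 (limma SE, adjusted p = 0.047). It no longer passed in fits that left out low 2, low 4, low 6, low 7, low 8, low 9, high 2, high 3 or high 5, with differences of 0.90 to 1.12 and adjusted limma p of 0.052 to 0.13 in those fits. The activin type II receptor gene ACVR2B differed by 0.38 and AMHR2, the receptor of anti-Müllerian hormone, by 0.16 (limma adjusted p = 0.23 and 0.51). The epithelium list mean, at 1.23 ± 0.48 in high (SD, n = 5), against -0.69 ± 1.04 in low prolificacy (SD, n = 9), moved the same way as ACVR1B, and its part in that rise was not tested.

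Of 3 measured binding and latency proteins 0 were called. FBN1, the fibrillin of microfibrils that hold latent TGF-beta, lay just outside the threshold at 8.95 ± 1.11 in high (SD, n = 5), against 10.33 ± 0.64 in low prolificacy (SD, n = 9), a difference of -1.37 ± 0.42 (limma SE, adjusted p = 0.062). FST, follistatin itself, differed by -0.38 ± 0.25 (limma SE, adjusted p = 0.43), while its relative FSTL3 had been chosen for its fall. Of 4 SMADs and regulators 0 were called. SMAD4, the shared partner of receptor SMADs, differed by -0.53 ± 0.26 and SMAD1, a substrate of ACVR1, by 0.31 ± 0.23 (limma SE, adjusted p = 0.26 and 0.51).

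Of 9 genes known as targets of the pathway in other tissues, 2 rose (22.2%, against 3.5% of all probe sets) and 1 fell (11.1%, against 4.35%), and nothing particular to targets is read from these counts. ID2, an inhibitor of basic helix-loop-helix factors, had levels of 7.10 ± 0.47 in high (SD, n = 5), against 5.90 ± 0.44 in low prolificacy (SD, n = 9), a difference of 1.19 ± 0.24 (limma SE, adjusted p = 0.0074). PMEPA1, a membrane protein that restrains SMAD signalling, rose by 1.16 ± 0.32 (limma SE, adjusted p = 0.041) to 9.49 ± 0.67 in high (SD, n = 5), against 8.33 ± 0.60 in low prolificacy (SD, n = 9). The other 4 PMEPA1 probe sets differed by 0.27 to 0.89 and were not called, and the call of the brightest was lost in 8 of 14 fits that left out 1 array (those leaving out low 2, low 5, low 6, low 8, low 9, high 2, high 3 or high 5, limma adjusted p up to 0.14).

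SPARC, a matrix glycoprotein, fell by 1.16 ± 0.28 (limma SE, adjusted p = 0.021) to 11.96 ± 0.89 in high (SD, n = 5), against 13.12 ± 0.20 in low prolificacy (SD, n = 9). SPARC did not pass without high 2, high 3 or high 5 (adjusted limma p of 0.073, 0.065 and 0.057). Its dimmer probe set differed by -0.13. The matrix protein gene POSTN differed by -1.52 ± 1.02 and the cell cycle inhibitor gene CDKN1A by 0.58 ± 0.34 (limma SE, adjusted p = 0.45 and 0.36). The epithelium list mean moved the same way as ID2 and PMEPA1, and the smooth muscle and stromal list means the same way as SPARC, and their part in these changes was not tested.

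**Figure D5:**
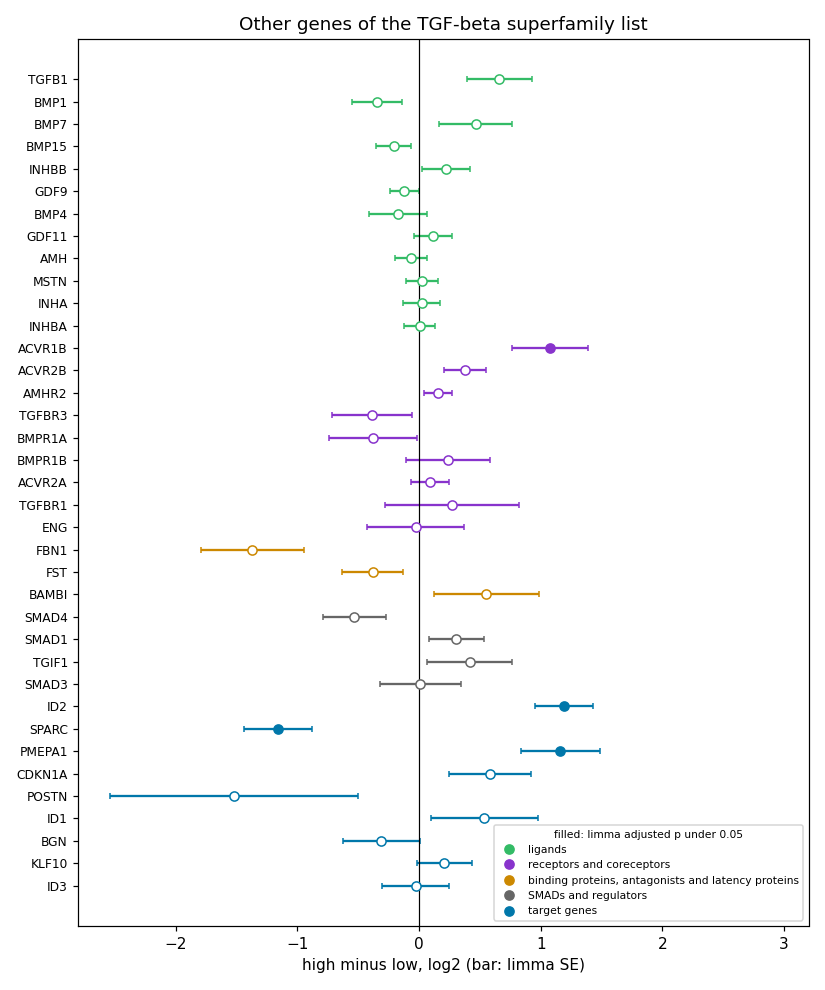
High minus low prolificacy on the log2 scale, with limma's standard error as bars, for 37 other genes on the array. They are ligands, receptors, binding proteins, SMADs and target genes of the superfamily's pathway, grouped by role and coloured by it. Filled points passed limma's adjusted p of 0.05, and these are ACVR1B, ID2 and PMEPA1 on the higher side and SPARC on the lower side.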

How the data were processed

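Levels were measured with 1 Affymetrix porcine array per sow in 14 uterus samples. The authors deposited log2 values from RMA, as the submitters' processing notes state, and which implementation and version they used is not given in the sources used here. This method equalises probe intensity distributions between arrays, so a shift shared by most transcripts would be removed. No detection calls were used, and the number of arrays limits the precision. Array medians lay between 5.73 and 5.84. Of 24123 probe sets, 124 controls were left out. Gene symbols are those of the platform's own annotation, possibly outdated (10069 probe sets with 1 symbol, 198 with several, 13732 with none).

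High minus low, the slope on a marker list mean with group in the model, and the difference in slope were fitted with lmFit and eBayes of limma 3.58.1, run under R 4.3.3, two-sided, with Benjamini-Hochberg adjustment over all 23999 probe sets and a threshold of 0.05. A gene outside the 4 was its brightest probe set. Correlations in the 9 low arrays had exact two-sided permutation p-values over all 362880 pairings. The fits were tested on simulated data. P-values measure the spread between sows of these groups; the labels call the samples biological replicates.

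The members and lists were chosen with earlier results of these data known, and the marker and role lists were written from textbook knowledge. Named genes were the 4 members, the called genes of the role list and the 2 others with the smallest p in each role, and the 4 genes most like each member. Alternatives were a filter to the 12000 brightest probe sets, cyclic loess, median subtraction, array weights, trend and robust eBayes, the replicate number as a block, other list summaries and covariates, the low arrays alone, and leaving out each array.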

Additional observations from a re-analysis of the deposited data

Results flagged for a closer look

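Single arrays stood apart from the rest of their group in 6 of 60 group-by-measure combinations examined, where chance gives about 1 in 20. None of the 10 probe sets of TGFB2, TGFB3, ACVR1 and FSTL3 was among them. The smooth muscle list mean of high 1 was -0.0069, against -2.47 in the nearest other high array. Among the other genes listed by role, low 3 stood apart in ACVR2B (4.79, nearest 4.17), FBN1 (8.86, nearest 10.22) and SMAD4 (7.75, nearest 8.46). SMAD4 was also low in high 5 (6.67, nearest 8.19), and ID2 was high in low 1 (6.94, nearest 6.19).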

How the results depend on the processing

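High minus low had 1885 calls, against 3060 with array weights, 35 with the replicate block, 944 to 2650 when 1 array was left out (lowest without high 3, then 1002 without high 2), 2979 without high 1 and high 4 and 1065 without low 7 and low 9. The smooth muscle slope had 69 calls, against 114 with cyclic loess, 38 with array weights, 0 with the replicate block, 18 with the epithelium mean added, 121 with the list median, 516 with the stromal mean, 0 in the low arrays alone and 2 (without high 1) to 219 (without high 4) when 1 array was left out (30 without high 3, 111 without low 3, 44 without low 7). The difference in slope had 0 calls, against 1 with the 12000 brightest probe sets, 1 with cyclic loess and 0 to 3 (without low 8) with 1 array left out. No high array shares a number with low 6 to low 9, so with the replicate block these low arrays do not inform the high minus low contrast. The cause of these changes was not tested.

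The ACVR1 slope on smooth muscle turned to -0.011 with array weights and -0.12 in the low arrays alone, and on the stromal mean it was -0.045. The TGFB3 slope turned to -0.054 with the replicate block and was 1.37 on the stromal mean, and its difference in slope between groups was -1.17 to 0.14 with 1 array left out, turning without low 7. The TGFB3 slope on the stromal mean was 1.15 to 1.65 with 1 array left out, 1.49 with the smooth muscle mean added (limma adjusted p = 0.064) and -0.45 with the replicate block. At equal smooth muscle mean, leaving out 1 array gave -0.11 to 0.62 for TGFB2, -0.88 to 1.80 for TGFB3, -0.70 to -0.17 for ACVR1 and -0.35 to 3.04 for FSTL3. High minus low was -0.17 for the third TGFB2 and -0.75 for the second TGFB3 probe set. Nothing in the labels says that shared replicate numbers pair the sows. Deviations of same-numbered arrays correlated between -0.25 and 0.42, over 0.1 in 3 of 5 pairs and at -0.066 and -0.25 in the others. Of 5 high arrays 3 correlated best with their own number, and 2 low arrays did so. With the replicate block the calls of TGFB2, TGFB3, ACVR1, FSTL3, ACVR1B, ID2, SPARC and PMEPA1 were lost. Dim probe sets of TGFB2 and TGFB3 are limited by signal over an unknown background.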
